A study of Homo sapiens with 72 samples.

Results

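The response to TGF-β of long non-coding RNA (lncRNA) genes was followed over 24 h in MCF10A-M2 (M2), a human breast epithelial line obtained by transforming MCF10A cells with HA-Ras. The course consists of 12 of the 72 libraries listed for the study, chosen by their sample labels: M2 cells at 2, 8 and 24 h of TGF-β (5 ng/mL), and non-stimulated M2 cells at 0 h, with 3 libraries at each time. All cells had been kept overnight without serum before the agent was added, so the 0 h cells share that treatment. A further 12 M2 libraries were given SB431542 (SB, 10 µM), a small molecule that blocks the type I TGF-β receptor kinase, and form the only other M2 course over the same hours. Their first samples are 0 h by title and 0.5 h by treatment label, and are called the earliest SB libraries. MCF10A-M1 (M1), the line without the Ras transgene, and the breast cancer line MDA-MB-231 were treated in the same way. The sources do not say whether M2 is a single clone. The design text calls the triplicates biological; if they were not separate cultures, the p-values below measure only the spread between these samples.

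TGF-β binds a pair of transmembrane receptor kinases that phosphorylate SMAD proteins, which enter the nucleus and act on transcription. Direct targets can therefore change within hours, while later changes may pass through proteins made in between. In breast epithelial cells TGF-β is known for arresting growth and for driving an epithelial to mesenchymal transition, and activated Ras is known to favour that transition. lncRNA genes are transcripts without a long coding frame, and some are known to act in chromatin regulation or as sponges for small RNAs.

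The table gave TPM (a length-corrected share of a library's transcripts) for 96411 NONCODE lncRNA genes. They sum to a fixed total in each library with no protein-coding gene among them, so a gain in a few abundant lncRNA genes lowers the values of the rest. TPM keeps no depth, and the depth of each library is unknown. Of the 96411 genes, 16958 (17.6%) had at least 0.5 TPM in at least 3 of the 24 M2 libraries and were tested. The identifiers are not paired with gene symbols in the files, and 0 of them matched the annotation tables used, so 4 genes are given by identifier, the others by rank, and no gene's function, position or sequence is given. For the same reason the breast epithelial identity of the line could not be checked against marker genes. Within the 8 M2 groups, libraries of a group correlated across genes, which are not independent replicates, with r between 0.937 and 0.972. Of 557 genes averaging 100 TPM or more, 20 varied within groups by an SD over 1 (log2). The most abundant of these spanned 0.289 to 52200 TPM over all 24 M2 libraries, across groups.

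The lncRNA response of M2 was small at 2 h, moderate at 8 h and broad at 24 h. Genes were tested with limma on log2(TPM + 0.5) and called at a Benjamini-Hochberg adjusted p under 0.05 over all genes tested. At 2 h of TGF-β 119 genes (0.702% of those tested) were called against 0 h, 81 higher (0.478%) and 38 lower (0.224%). At 8 h the count was 824 (4.86%), with 450 higher (2.65%) and 374 lower (2.21%). At 24 h it was 8365 (49.3%), with 714 higher (4.21%) and 7651 lower (45.1%). The 3 comparisons share the 0 h libraries. Taken step by step, 8 h against 2 h gave 215 calls (1.27%), 98 higher (0.578%) and 117 lower (0.69%). From 8 to 24 h there were 6560 (38.7%), 242 higher (1.43%) and 6318 lower (37.3%), and when rescaled 1823 higher (10.8%) and 1671 lower (9.85%). The first of these steps gave 101 to 149 calls when 1 library was left out, and the last gave 4267 without the third 8 h library.

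The balance of rises and falls at 24 h depended on the scaling. The median log2 change over all genes was -0.04 at 2 h, -0.08 at 8 h and -0.74 at 24 h. After each library was rescaled by the median of its gene ratios (called rescaled below) these medians were -0.03, -0.01 and -0.15. When rescaled, 2 h of TGF-β gave calls for 1.35% of the tested genes, 166 of them higher (0.979%) and 63 lower (0.372%). At 8 h 8.79% were called, 891 higher (5.25%) and 599 lower (3.53%). At 24 h 37% were called, 2971 higher (17.5%) and 3295 lower (19.4%). All 714 genes called higher at 24 h as deposited were also called higher when rescaled. Of the 7651 called lower, 3295 were also called lower when rescaled and 202 were called higher. At 2 h 75 higher and 30 lower genes were called under both scalings, and at 8 h 446 and 357 were. The count at 2 h rested on few libraries: it was 53 without the second 0 h library, and 62 and 64 without the first and the second 2 h library. At 8 h it was 545 without the first 0 h library and 498 without the second 8 h library.

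**Figure D1:**
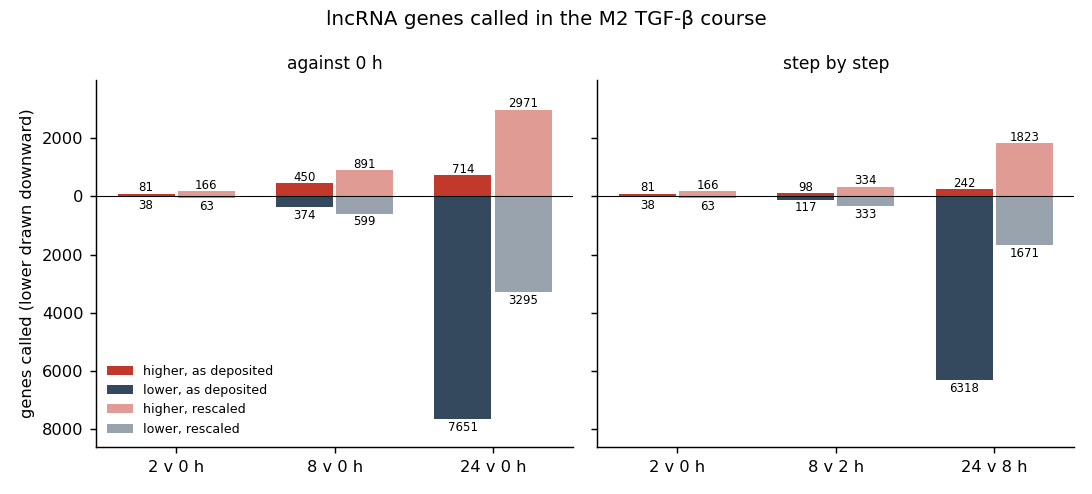
lncRNA genes called in M2 at 2, 8 and 24 h of TGF-β against 0 h (left) and step by step (right), with higher calls drawn upward and lower calls downward, as deposited (dark) and rescaled (pale). Calls rise at each time, and the 24 h falls number 7651 as deposited and 3295 rescaled.

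The make-up of the libraries changed over the same hours in both arms. With TGF-β, 13948, 12533 and 14232 lncRNA genes reached 0.5 TPM at 0 h. The counts were 13292, 12897 and 12627 at 2 h, 11751, 13638 and 13822 at 8 h, and 8458, 8645 and 10138 at 24 h. As deposited, the 24 h libraries did not overlap with the other 9 (exact permutation test over the 4 times, two-sided by its F statistic, p = 0.012, adjusted over 8 such tests 0.0325). Rescaled, the counts were 12668, 12241 and 12312 at 0 h, 11811, 11926 and 11625 at 2 h, and 10753, 11139 and 11720 at 24 h. The rescaled fall was thus smaller, and the 24 h libraries overlapped with those at 2 h. In the SB arm the mean count was 13123 ± 1020 in the earliest libraries, and it was 11679 ± 2020, 11134 ± 700 and 9310 ± 42.9 after 2, 8 and 24 h (SD, n = 3 each; exact permutation p = 0.0398, adjusted 0.0455). The single most abundant gene held on average 26.9%, 27.7%, 31.1% and 37.9% of all TPM at 0, 2, 8 and 24 h of TGF-β (exact permutation p = 0.0203, adjusted 0.0325). It held 25.4%, 30.4%, 34% and 34.8% over the SB course (exact permutation p = 0.0195, adjusted 0.0325). The part of this shift in the 24 h falls was not tested beyond the rescaling. With unknown depth, fewer detected genes and shallower libraries cannot be told apart.

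**Figure D2:**
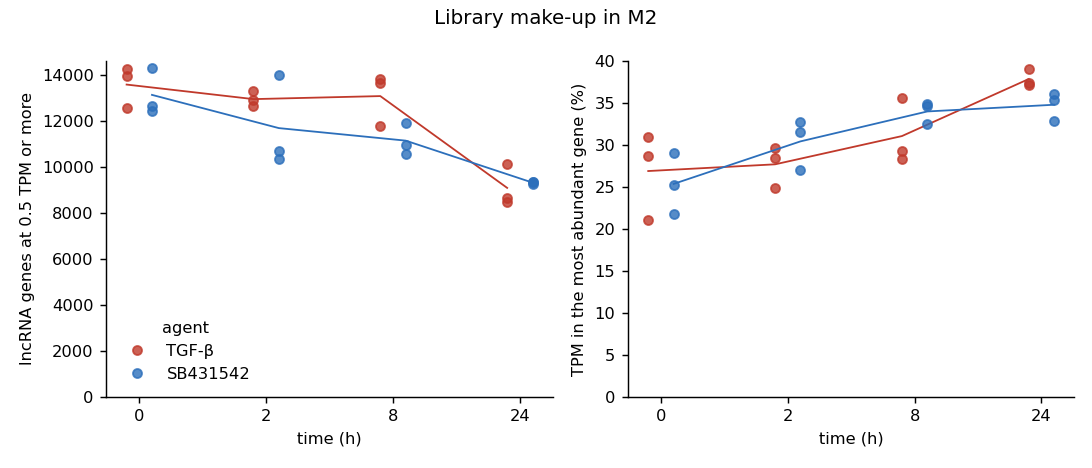
Count of lncRNA genes reaching 0.5 TPM (left) and percent of TPM in the most abundant gene (right) in each of the 24 M2 libraries by time in hours; points are libraries, lines join group means, red is TGF-β and blue is SB431542. As deposited, the 3 libraries at 24 h of TGF-β hold 8458 to 10138 genes, below every earlier TGF-β library.

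Early risers led the response. NONHSAG048398.2 showed the largest rise at 2 h among the 38 risers that were called under both scalings, had separate libraries and averaged at least 5 TPM in one group. It had 13.4, 8.95 and 15.5 TPM at 0 h, 266, 199 and 194 TPM at 2 h, 336, 528 and 529 TPM at 8 h, and 2060, 1540 and 1880 TPM at 24 h. Each time lay above the one before without overlap. Against 0 h its log2 change was 4.09 (SE 0.29, limma adjusted p = 1.16e-08) at 2 h, 5.15 (adjusted p = 8.49e-11) at 8 h and 7.15 (adjusted p = 1.75e-14) at 24 h. The further rise was called between 8 and 24 h (2 on the log2 scale, adjusted p = 1.53e-05). Between 2 and 8 h the difference of 1.06 was not called as deposited (adjusted p = 0.0727), and that of 1.14 was called when rescaled (adjusted p = 0.00311). Under SB the same gene had 20.5, 15 and 20.8 TPM in the earliest libraries, 9.64, 6.94 and 4.77 TPM at 2 h, and 8.78, 19.2 and 21.9 TPM at 8 h. By 24 h of SB it stood at 156, 147 and 117 TPM, a rise of 2.87 (log2, adjusted p = 2.02e-07). The TGF-β change exceeded the SB change by 5.46 at 2 h (adjusted p = 3.79e-08), 5.4 at 8 h (adjusted p = 4.78e-08) and 4.27 at 24 h (adjusted p = 2.06e-07). This difference contains the change from 0 h by which a gene was chosen, so for each gene described here its direction is in large part set by the choice.

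Other early risers took different courses after 2 h. The gene ranked second at 2 h reached a plateau as deposited, with 0.352, 0.0307 and 0.707 TPM at 0 h, 7.91, 6.62 and 8.16 TPM at 2 h, 6.35, 7.32 and 10.6 TPM at 8 h, and 7.52, 11 and 9.19 TPM at 24 h. Its 24 h and 8 h levels were not told apart as deposited (log2 difference 0.2, limma adjusted p = 0.625). The rescaling factors, by which values are divided, averaged 1.233 at 8 h and 0.6027 at 24 h of TGF-β. When rescaled, its 24 h level therefore lies above its 8 h level and the plateau is not kept. The fourth rose in 2 steps. It had 3.58, 2.13 and 5.24 TPM at 0 h, 26.4, 26.4 and 27.5 TPM at 2 h, 25.9, 26.7 and 29.2 TPM at 8 h, and 106, 119 and 125 TPM at 24 h. Its second step was 2.08 on the log2 scale (limma adjusted p = 8.96e-07). The fifth was highest at 2 h as deposited, with 0.957, 0.754 and 1.13 TPM at 0 h, 10.7, 9.13 and 7.76 TPM at 2 h, 4.06, 4.98 and 4.84 TPM at 8 h, and 4.2, 3.8 and 4.13 TPM at 24 h. Its 24 h level lay below its 2 h level by -1.09 (log2, limma adjusted p = 0.00102), yet by only -0.06 when rescaled (adjusted p = 0.835). Of the 38 risers, 6 were called lower at 24 h than at 2 h, beside 38.7% of all genes, and 19 were called higher, beside 2.82%; 2 of the 6 were called lower under both scalings. The 2 h libraries that chose these genes are part of this comparison. The 10 largest rises at 2 h spanned 2.24 to 4.09 (log2), and the median of these 10 genes was 2.66 at 2 h, 2.98 at 8 h and 3.57 at 24 h.

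**Figure D3:**
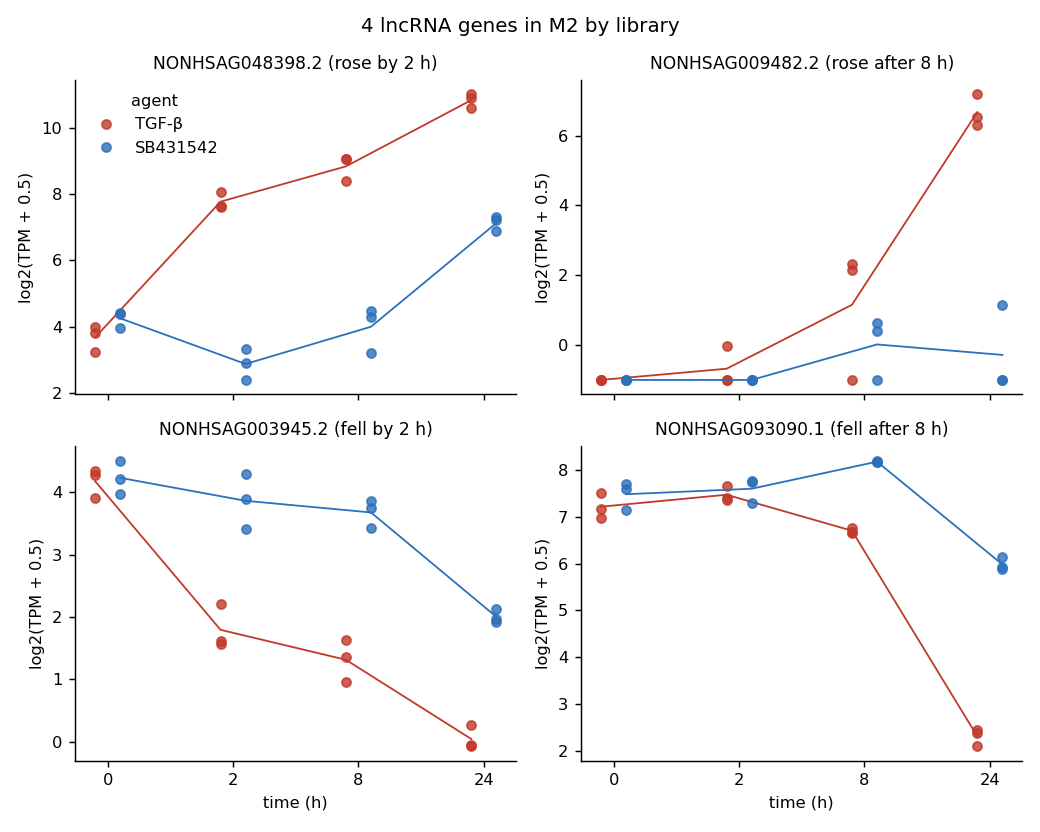
log2(TPM + 0.5) of 4 lncRNA genes in each M2 library by time in hours; red is TGF-β and blue is SB431542, points are libraries and lines join group means. The left panels show a gene that rose and one that fell by 2 h, and the right panels show genes called against 0 h at 24 h and not at 2 or 8 h.

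Early falls were fewer, 38 against 81 rises, and of like median size (log2 -1.5 and 1.59 as deposited, -1.1 and 1 rescaled). NONHSAG003945.2 fell most at 2 h among the 9 fallers that met the same rule. It had 18.9, 14.6 and 19.8 TPM at 0 h, 2.56, 2.46 and 4.1 TPM at 2 h, 1.45, 2.58 and 2.05 TPM at 8 h, and 0.461, 0.446 and 0.696 TPM at 24 h. Every library from 2 h on lay below all 0 h libraries, and the 24 h libraries lay below the rest. The log2 change against 0 h was -2.38 (SE 0.25, limma adjusted p = 4.38e-06) at 2 h, -2.86 (adjusted p = 1.02e-07) at 8 h and -4.14 (adjusted p = 1.37e-11) at 24 h. Under SB it held 3.27, 3.87 and 3.4 TPM at 24 h, against 15.2, 18.1 and 22.3 TPM in the earliest libraries, a fall of -2.23 (log2, adjusted p = 9.42e-07). The TGF-β change was still more negative than the SB change, by -2.01 at 2 h (adjusted p = 0.00485), -2.31 at 8 h (adjusted p = 0.000527) and -1.91 at 24 h (adjusted p = 0.00166). The third-ranked faller recovered in part at 8 h. It had 21, 19.1 and 21.6 TPM at 0 h, 5.05, 5.21 and 5.2 TPM at 2 h, 10.2, 11.1 and 11.4 TPM at 8 h, and 4.38, 5.14 and 9.09 TPM at 24 h. In the SB arm that gene instead stood at 38.6, 44.5 and 45 TPM at 24 h, above its earliest SB levels of 14, 21.7 and 16.8 TPM.

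Strong changes at 8 h differed in how far they had gone at 2 h. NONHSAG048398.2 also ranked first among the 261 risers at 8 h that met the rule. The 10 largest rises spanned 3.21 to 5.15 (log2), and the same genes spanned 1.03 to 4.09 at 2 h. Their median was 1.98 at 2 h, 3.56 at 8 h and 5.56 at 24 h. The largest fall of the 192 fallers at 8 h was seen in a gene with 7.35, 7.69 and 9.22 TPM at 0 h, 4.73, 1.79 and 6.28 TPM at 2 h, and 0.642, 0.197 and 1.16 TPM at 8 h. At 24 h it was listed at 0.26, 0 and 0 TPM. In the SB arm this gene had 0.454, 0.187 and 0.477 TPM at 24 h, against 5.91, 2.5 and 6.44 TPM in the earliest libraries. The difference between arms was not called at 24 h (log2 -1.33, limma adjusted p = 0.217). Across the 10 largest falls the median was -0.85 at 2 h, -2.27 at 8 h and -4.02 at 24 h with TGF-β, against -2.34 at 24 h of SB. At 2 h of TGF-β these genes spanned -2.38 to -0.18.

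Most calls of the course were made at 24 h. Among 83 genes first called higher at 24 h by the rule, NONHSAG009482.2 rose most. It was listed at 0 in all 3 libraries at 0 h, at 0, 0 and 0.475 TPM at 2 h, at 4.5, 0 and 3.9 TPM at 8 h, and at 146, 78 and 92.9 TPM at 24 h. No fold is given because the gene was listed at 0 before stimulation; the 24 h difference had a limma adjusted p of 1.78e-09. At 8 h 2 of 3 libraries were already above 3 TPM, and the difference was not called (adjusted p = 0.0522). It was called at 8 h with a pseudocount of 1 (adjusted p = 0.0431) and without the second 8 h library (adjusted p = 0.000594). Under SB the gene reached at most 1.72 TPM, in one 24 h library, and the TGF-β arm differed from it at 24 h (limma adjusted p = 1.92e-05).

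The largest late fall, among 958 such genes, was that of NONHSAG093090.1. It had 144, 126 and 181 TPM at 0 h, 163, 169 and 203 TPM at 2 h, 101, 102 and 109 TPM at 8 h, and 3.75, 4.92 and 4.73 TPM at 24 h. The 8 h libraries already lay below all 0 h libraries, but the change of -0.52 was not called (limma adjusted p = 0.097); against 2 h the 8 h level was called lower (log2 -0.77, adjusted p = 0.0261). At 24 h the log2 change was -4.91 (SE 0.18, limma adjusted p = 4.05e-15), and -4.4 of it fell between 8 and 24 h (adjusted p = 4.9e-14). In the SB arm this gene first stood at 289, 295 and 287 TPM at 8 h. That was above the 142, 209 and 193 TPM of the earliest SB libraries (log2 0.7, limma adjusted p = 0.0413). At 24 h of SB it had 58.6, 69.7 and 60.6 TPM, a fall of -1.5 (adjusted p = 1.34e-06). The arms thus differed by -1.21 at 8 h (adjusted p = 0.00872) and -3.41 at 24 h (adjusted p = 2.57e-09). Without the 10 most abundant genes in the scaling total, the 24 h difference was called (-3.44, adjusted p = 1.26e-05). The 8 h difference was then not called (-1.54, adjusted p = 0.126). Neither was the 8 h fall against 2 h (adjusted p = 0.561) or the SB rise at 8 h (adjusted p = 0.185).

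Of the 335 risers at 24 h that met the rule, the first-ranked gene began near 0 and rose at every time. It had 0.976, 0.422 and 0.506 TPM at 0 h, 2.83, 1.45 and 1.79 TPM at 2 h, 14.4, 15.2 and 15.1 TPM at 8 h, and 509, 554 and 583 TPM at 24 h. Between 8 and 24 h it gained 5.15 on the log2 scale (limma adjusted p = 1.29e-10). In the SB arm it had 8.8, 7.52 and 7.03 TPM at 24 h, against 0.707, 0.146 and 0 TPM in the earliest libraries. Of the 10 largest rises at 24 h, 4 were listed at 0 in every 0 h library. The first-ranked of the 1298 fallers at 24 h had 169, 175 and 230 TPM at 0 h, 234, 178 and 156 TPM at 2 h, 65.9, 102 and 108 TPM at 8 h, and 4.54, 1.47 and 2.27 TPM at 24 h. Its level at 24 h of SB was 75.9, 73 and 48.7 TPM, against 166, 237 and 262 TPM in the earliest SB libraries.

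The late change was described by classes of mean abundance over the 24 M2 libraries. The 24 h libraries are part of that mean, so a rise at 24 h itself moves a gene toward a higher class. The order of the classes is thus in part set by their definition, and it was not tested. Genes averaging 100 TPM or more (557 genes) had a median log2 change at 24 h of -0.5 as deposited and 0.61 when rescaled, and 57.1% of them were called higher when rescaled. In the class of 10 to 100 TPM the rescaled median was 0.26, in that of 3 to 10 TPM -0.06, in that of 1 to 3 TPM -0.33 and under 1 TPM -0.22. As deposited these medians were -0.83, -1.03, -1.07 and -0.58, so the order depended on the scaling. With 24 h of SB the rescaled medians were 0.43 at 100 TPM or more (50.1% called higher), 0.16 at 10 to 100 TPM, -0.07 at 3 to 10 TPM, -0.23 at 1 to 3 TPM and -0.18 under 1 TPM.

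Persistence was read in comparisons that share no library with the one that chose the genes. All of them come from the same fit and share each gene's estimate of spread. Genes of low estimated spread are therefore favoured in both the choosing and the following comparison. The shares over all genes do not adjust for this. Counts against 0 h would share the 0 h libraries, so TGF-β at later times was set against the earliest SB libraries. These differed from the 0 h libraries in 2 genes (0.0118%) as deposited and in 0 when rescaled, with 1618 and 1803 genes at an unadjusted p under 0.05 by limma. Both of the latter counts exceed the share of 0.05 that would fall there with no difference. The earliest SB and 0 h libraries may thus differ by more than the calls show. Of the 81 genes higher at 2 h, 63 (77.8%) were called higher at 8 h of TGF-β, against 2.73% of all genes tested, and 126 of 166 (75.9%) were when rescaled, against 5.28%. At 24 h 54 (66.7%) were called higher and 3 lower, against 3.41% and 42.8% of all genes. Set against 8 h, 16 of the 81 were higher at 24 h (19.8%, beside 1.43% of all genes) and 17 lower (21%, beside 37.3%), with a median log2 difference of -0.07. Rescaled, 86 of 166 were higher (51.8%, beside 10.8% of all genes) and 11 lower (6.63%, beside 9.85%), with a median of 0.55. Rescaled, 139 of 166 such genes (83.7%) were higher at 24 h, against 16.1% of all genes.

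Early falls persisted less clearly. Of the 38 genes lower at 2 h, 6 (15.8%) were called lower at 8 h of TGF-β against the earliest SB libraries, beside 4.09% of all genes. Rescaled, 18 of 63 (28.6%) were, also beside 4.09%. At 24 h 16 of the 38 (42.1%) were lower, beside 42.8% of all genes. Rescaled, 34 of 63 (54%) were lower at 24 h, against 15.2% of all genes. The median level of the 38 genes was 0.539 TPM, under the 2.55 TPM of the 81 early risers, and lay near the filter of 0.5 TPM. Falls at 8 h were followed by falls: 324 of 374 (86.6%) were lower at 24 h against the earliest SB libraries, beside 42.8% of all genes, and 474 of 599 (79.1%) when rescaled, beside 15.2%. Of the 450 genes higher at 8 h, 240 (53.3%) were higher at 24 h, beside 3.41% of all genes. Rescaled, 741 of 891 (83.2%) were, beside 16.1%.

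**Figure D4:**
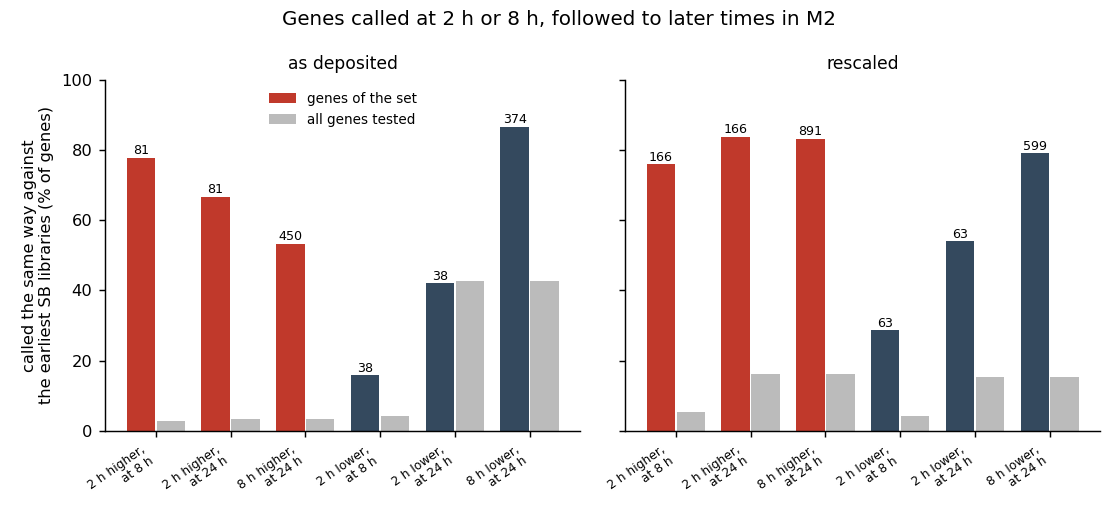
Percent of the genes called at 2 h or 8 h of TGF-β against 0 h that were called the same way at a later TGF-β time against the earliest SB libraries (red for higher, blue-grey for lower, with the number of genes above each bar), beside the same percent of all genes tested (light grey). Early risers stayed higher at 24 h in 66.7% as deposited and 83.7% rescaled, while early falls stayed lower at 24 h in 42.1% as deposited and 54% rescaled, beside 42.8% and 15.2% of all genes.

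The genes called at 24 h were also read at earlier times. Few genes were called at all at 2 h against the earliest SB libraries (76 higher and 27 lower), which caps the share of the 24 h genes that could be called. Of the 714 genes higher at 24 h, 46 (6.44%) were called higher at 2 h of TGF-β against the earliest SB libraries, beside 0.448% of all genes, and 228 (31.9%) at 8 h, beside 2.73%. Of the 7651 genes lower at 24 h, 20 (0.261%) were lower at 2 h, beside 0.159%, and 635 (8.3%) at 8 h, beside 4.09%. Counted from the other list, these 46 are 60.5% of the 76 and these 20 are 74.1% of the 27. At 8 h 627 of the 714 genes higher at 24 h lay on the higher side, with a median log2 difference of 0.59, beside -0.08 over all genes. The 714 include genes already called earlier, such as NONHSAG048398.2. Side by side, and sharing the 0 h libraries, the median log2 changes at 2, 8 and 24 h were 1.59, 1.67 and 1.64 for the 81 early risers, 0.65, 1.4 and 1.01 for the 450 genes higher at 8 h, and 0.4, 0.86 and 1.27 for the 714 genes higher at 24 h. They were -1.5, -1.05 and -1.69 for the 38 genes lower at 2 h, -0.53, -1.19 and -2.2 for the 374 lower at 8 h, and -0.19, -0.36 and -1.33 for the 7651 lower at 24 h. Rescaled, they were 1, 1.32 and 1.75 for the 166 genes higher at 2 h, 0.44, 0.99 and 1.41 for the 891 higher at 8 h, and 0.22, 0.41 and 1.1 for the 2971 higher at 24 h. Those of the genes lower when rescaled were -1.1, -0.9 and -1.17 for the 63 at 2 h, -0.33, -0.92 and -1.38 for the 599 at 8 h, and -0.28, -0.48 and -1.14 for the 3295 at 24 h.

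The same gene sets were read in the SB course. Of the 81 early risers none was called higher at 2 h of SB, beside 0.0118% of all genes, and 8 were called lower, beside 2.98%. At 24 h of SB 12 were higher (14.8%) and 21 lower (25.9%), beside 2.01% and 35.2%. Rescaled, 61 of 166 were higher at 24 h of SB (36.7%, beside 10.8%) and 23 lower (13.9%, beside 9.75%). Of the 38 genes lower at 2 h of TGF-β, 14 were lower at 24 h of SB (36.8%, beside 35.2%) and 2 higher. Rescaled, 23 of 63 were lower (36.5%, beside 9.75%) and 9 higher. Of the 374 genes lower at 8 h of TGF-β, 288 (77%) were lower at 24 h of SB, beside 35.2%, and 3 higher. Rescaled, 288 of 599 (48.1%) were lower, beside 9.75%, and 18 higher. Of the 450 genes higher at 8 h, 97 (21.6%) were higher at 24 h of SB, beside 2.01%, and 74 (16.4%) lower. Rescaled, 414 of 891 (46.5%) were higher, beside 10.8%, and 51 lower. Of the 7651 genes lower at 24 h of TGF-β, 4496 (58.8%) were also lower at 24 h of SB against the earliest SB libraries, beside 35.2% of all genes. Of the 714 higher genes 197 (27.6%) were higher under SB, beside 2.01% of all genes. Rescaled, 1320 of 2971 (44.4%) were higher, beside 10.8%, and 1037 of 3295 (31.5%) lower, beside 9.75%. No untreated cells at 2, 8 or 24 h were analysed here, so time in culture and the agents cannot be told apart in either course alone.

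The difference between the arms was also tested, as the TGF-β change minus the SB change. SB is itself an active agent, so effects of TGF-β and of SB cannot be told apart in this difference. The difference was called for 291 genes at 2 h (1.72%), 274 higher (1.62%) and 17 lower (0.1%). At 8 h it was called for 343 (2.02%), 312 higher (1.84%) and 31 lower (0.183%), and at 24 h for 798 (4.71%), 359 higher (2.12%) and 439 lower (2.59%). Rescaled, it was called for 0.826% of genes at 2 h (119 higher and 21 lower), 2.81% at 8 h (316 and 161) and 10.5% at 24 h (1005 and 783). The SB side moved too. As deposited, the change to 2 h of SB was called higher for 2 genes and lower for 505, with a median log2 of -0.33 over all genes. Rescaled, 1 gene was called and the median was -0.01. The 2 h count between arms moved by over 1.5 times in 11 of 12 fits that left out 1 library, and was 1871 without the first SB 2 h library and 62 without the second 0 h library. At 8 h the count was 225 without the second 0 h library, 192 and 198 without the second and the third 8 h library, 211 without the third earliest SB library and 212 without the second SB 8 h library. The first SB 2 h library held 13996 genes at 0.5 TPM or more, and the other two held 10705 and 10335.

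**Figure D5:**
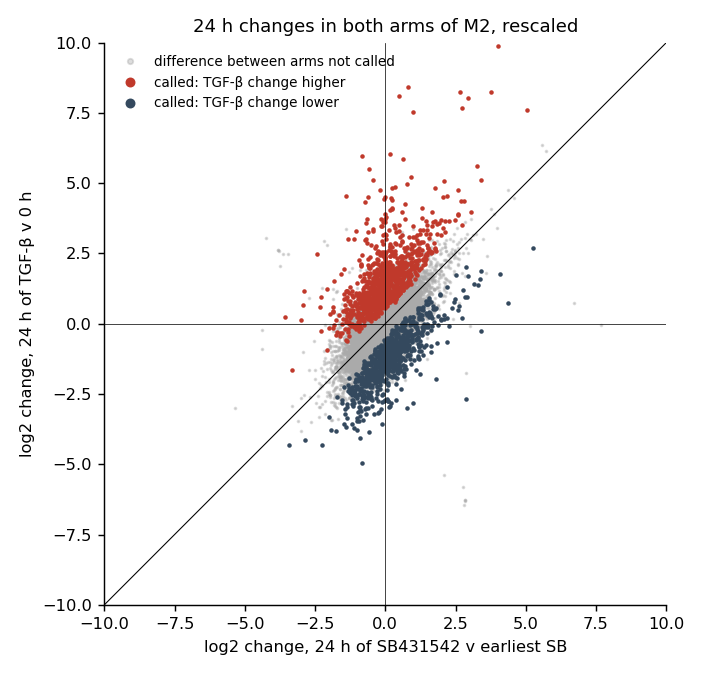
log2 change to 24 h of TGF-β (vertical, against 0 h) and to 24 h of SB431542 (horizontal, against the earliest SB libraries) for 16958 lncRNA genes in M2, rescaled; each point is a gene and the diagonal marks equal change. Genes whose difference between arms was called are red (1005, TGF-β change higher) or dark (783, TGF-β change lower).

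The M2 changes to 24 h of TGF-β were set against those of M1 and MDA-MB-231 in fits over 48 libraries. They differed from the M1 changes in 2969 of 21857 genes (13.6%), 446 more positive and 2523 more negative in M2, and when rescaled in 16.2%, 2053 and 1486 genes. They differed from the MDA-MB-231 changes in 4030 of 20203 genes (19.9%), 642 more positive and 3388 more negative in M2, and when rescaled in 21.6%, 2177 and 2189 genes. At 2 h the differing genes numbered 12 from M1 (0.0549%) and 62 from MDA-MB-231 (0.307%), and at 8 h 387 (1.77%) and 414 (2.05%). Rescaled, they numbered 77 (0.352%) and 117 (0.579%) at 2 h, and 816 (3.73%) and 908 (4.49%) at 8 h.

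The climb of NONHSAG048398.2 differed between the lines. In M2 it averaged 12.6 ± 3.36, 220 ± 40.4, 464 ± 111 and 1830 ± 263 TPM along the TGF-β course (SD, n = 3 each). In M1 it averaged 106 ± 11, 489 ± 10.4, 560 ± 28.2 and 448 ± 31.3 TPM, and in MDA-MB-231 44.8 ± 7.62, 274 ± 60.1, 221 ± 15.6 and 169 ± 35.3 TPM. The 24 h change in M2 exceeded that in M1 by 5.07 (log2, SE 0.31, limma adjusted p = 5.46e-15) and that in MDA-MB-231 by 5.25 (SE 0.36, adjusted p = 5.34e-14). NONHSAG009482.2 was listed at 0 in every TGF-β library of M1 and MDA-MB-231. NONHSAG003945.2 fell in M1 too, where it averaged 3.35 ± 0.223 TPM at 24 h, against 35.3 ± 0.996 TPM at 0 h. In the TGF-β libraries of MDA-MB-231 it did not exceed 0.441 TPM. NONHSAG093090.1 fell earlier in M1, where it averaged 98 ± 9.11 TPM at 0 h, 23.7 ± 1.96 TPM at 8 h and 24.8 ± 3.59 TPM at 24 h. In MDA-MB-231 it averaged 151 ± 16.6 TPM at 24 h, against 188 ± 14 TPM at 0 h.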

How the data were processed

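RNA was extracted with TRIzol and sequenced on an Illumina platform, per the labels' protocols. FastQC, cutadapt 2.10, HISAT2 2.2.0, StringTie 1.3.6 and GRCh38 are named in the submitters' processing notes; the sources used here give no annotation, strand setting or filter. The authors deposited TPM for 96411 lncRNA genes in 72 columns. Columns were mapped to samples through the label they carry, and no column equalled another. Without a known strand setting, overlapping and antisense genes, and near-identical genes, cannot be told apart. The design text speaks of 36 samples.

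Genes reaching 0.5 TPM in 3 or more of 24 M2 libraries entered limma 3.58.1 as log2(TPM + 0.5) (lmFit, contrasts.fit, eBayes with trend, all 8 groups in one fit, 16 residual degrees of freedom) in R 4.3.3, two-sided, with Benjamini-Hochberg adjustment; the fit was tested on simulated data. A log2 change on this scale understates the change of low genes. Comparisons between lines used 48 libraries. Rescaling divided each library by its median-of-ratios factor, from 10976 genes. Counts per library were tested by exact permutation (369600 regroupings; numpy 2.4.6, pandas 2.3.3, Python 3.11.15), and figures were drawn with matplotlib 3.10.9.

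Named genes are the ones of largest log2 change called under both scalings, with libraries that do not overlap and a mean of at least 5 TPM in one group: at 2 h, and at 24 h among genes not called earlier, 1 in each direction. The 10 largest changes per time and direction are given by rank. The early riser of rank 5 is described as the one of largest change also called lower at 24 h than at 2 h. Members, rules and lists were chosen with earlier results of these data known. Replicate numbers do not pair the samples. Alternatives were pseudocounts of 0.1 and 1, no filter, rescaling, a scaling total without the 10 most abundant genes, the replicate number as a block, the 12 libraries of the course alone, and leaving out each library. Marker lists and sequences were not used here, because no identifier could be paired with a name.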

Additional observations from a re-analysis of the deposited data

Results flagged for a closer look

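For the named genes, the change under TGF-β differed between M2 and another line in 17 of 30 comparisons, by limma's test of the difference over 48 libraries with Benjamini-Hochberg adjustment. Values are differences of log2(TPM + 0.5) changes, M2 minus the other line. Over all genes tested, 0.0549% to 19.9% differed in these comparisons. The named genes were chosen for large changes in M2, so a difference from other lines is favoured by the choice.

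For NONHSAG048398.2 the M2 change exceeded the M1 change by 1.89 at 2 h (adjusted p = 0.00602), 2.75 at 8 h (adjusted p = 4.48e-07) and 5.07 at 24 h (adjusted p = 5.46e-15). It exceeded the MDA-MB-231 change by 2.85 at 8 h (adjusted p = 2e-06) and 5.25 at 24 h (adjusted p = 5.34e-14). The M2 level at 0 h was the lowest of the 3 lines, 12.6 TPM, against 106 TPM in M1 and 44.8 TPM in MDA-MB-231.

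For NONHSAG003945.2 the M2 fall was deeper than the M1 fall at 24 h, by -0.92 (adjusted p = 0.0209). It differed from the MDA-MB-231 change by -2.65 at 2 h (adjusted p = 1.35e-06), -2.56 at 8 h (adjusted p = 9.97e-07) and -3.91 at 24 h (adjusted p = 3.92e-12). In MDA-MB-231 the gene averaged 0.141 TPM at 0 h, below the pseudocount of 0.5, so it had almost no room to fall there. The direction of these differences from MDA-MB-231 was thus set by the M2 fall, though they are counted among the comparisons above.

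For NONHSAG009482.2 the difference at 24 h was 7.68 from both M1 (adjusted p = 9.82e-11) and MDA-MB-231 (adjusted p = 5.12e-11). Both lines list the gene at 0, as do the M2 libraries at 0 h, so the size depends on the pseudocount and is no fold.

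For NONHSAG093090.1 the M2 change was less negative than the M1 change at 8 h, by 1.51 (adjusted p = 1.45e-05), and more negative at 24 h, by -2.95 (adjusted p = 8.21e-14). From the MDA-MB-231 change it differed by -4.6 at 24 h (adjusted p = 1.61e-19). The changes themselves were -0.52 in M2 and -2.03 in M1 at 8 h, and -4.91 in M2 and -1.96 in M1 at 24 h.

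For the early riser of rank 5, the M2 change exceeded that in MDA-MB-231 by 2.12 at 2 h (adjusted p = 0.000291), 1.69 at 8 h (adjusted p = 0.00251) and 1.74 at 24 h (adjusted p = 0.000196). Its level at 2 h was 9.21 TPM in M2, against 1.01 TPM in MDA-MB-231.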

How the results depend on the processing

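Of 76 comparisons of a count or share with its value under another setting, leaving-out aside, 50 stayed within 1.5 times the count or close to the share, and 26 moved. Rescaling gave 229 calls at 2 h, 1490 at 8 h, 667 for 8 h against 2 h and 3494 for 24 h against 8 h. For the difference between arms it gave 140 at 2 h and 1788 at 24 h. The rescaled shares called the same way against the earliest SB libraries were 83.7% (2 h risers at 24 h of TGF-β), 83.2% and 79.1% (8 h risers and fallers at 24 h of TGF-β), 20% and 16.2% (24 h risers and fallers at 8 h of TGF-β), and 44.4% and 31.5% (24 h risers and fallers at 24 h of SB). At 8 h of TGF-β 5.28% and 4.09% of all genes were called higher and lower against these libraries when rescaled. A scaling total without the 10 most abundant genes gave 59 calls at 2 h, 467 at 8 h, 4740 at 24 h, 67 for 8 h against 2 h and 2516 for 24 h against 8 h. It gave 29, 119 and 438 between arms at 2, 8 and 24 h, 1640 between M2 and M1 and 2188 between M2 and MDA-MB-231. A pseudocount of 0.1 gave 75 calls at 2 h, and testing without a filter gave 157 between arms at 2 h. The cause of these shifts was not tested.

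Replicate numbers did not pair the samples (correlation of same-numbered deviations between -0.107 and 0.0901). With the replicate number as a block the calls were 102 at 2 h, 723 at 8 h, 8240 at 24 h and 129 between arms at 2 h; the last is the one count that the block moved by over 1.5 times.

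Leaving out 1 library at a time gave 53 to 113 calls at 2 h, 498 to 703 at 8 h, 6680 to 8574 at 24 h, 101 to 149 for 8 h against 2 h and 4267 to 7229 for 24 h against 8 h (4267 without the third 8 h library). Between arms the ranges were 62 to 1871 at 2 h, 192 to 484 at 8 h and 571 to 751 at 24 h. Between lines they were 2149 to 3302 for M1 and 3090 to 4326 for MDA-MB-231. As deposited, the fall in detected genes from 0 h to 24 h of TGF-β ranged from -5020 to -4160. Leaving-out of the shares was chosen after seeing the data. Against the earliest SB libraries 2 h risers ranged from 65.8% to 91.4% at 8 h and 56.5% to 85.7% at 24 h, and 8 h risers and fallers at 24 h from 46.4% to 68.2% and 78.4% to 89.3%. The 24 h risers ranged from 22.3% to 37.9% at 8 h of TGF-β and 22.2% to 32.4% at 24 h of SB, and the 24 h fallers from 3.61% to 9.96% and 39.1% to 63.3%. Of 156 values of the named genes' changes against 0 h under other settings, 154 kept their direction and side of the threshold. None reversed, and 2 (the 8 h rise of NONHSAG009482.2) passed it. Their steps between later times, SB changes and differences between arms are not among the 156. Some of those crossed the threshold under another scaling, as given above for NONHSAG093090.1. Unknown depth limits every low value.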
